A study of Mus musculus with 6 samples.

Results

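The Ly49 family is a set of cell-surface receptors of mouse natural killer (NK) cells and related lymphocytes, encoded by the Klra genes. It was taken here as the 10 genes Klra1 to Klra10, chosen by name from the 24091 gene symbols of the count table. Of these, 8 had enough reads to be tested. The mRNA came from type 1 innate lymphoid cells (ILC1), tissue-resident lymphocytes, isolated from the liver of C57BL/6 mice. In the AML group (3 libraries, AML 1 to 3) the mice had been given C1498 cells intravenously and cells were taken at day 14. C1498 is a transplantable leukaemia line of the same strain, and a transplanted line models leukaemia in a host that keeps its own immune cells. The healthy group (3 libraries, healthy 1 to 3) consisted of C57BL/6 mice that received no C1498 cells, also labelled day 14. The labels do not state the gating of the ILC1, the sex of the animals or any pooling.

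Ly49 receptors are C-type lectin-like proteins that mostly recognise MHC class I molecules. Inhibitory members carry a tyrosine-based inhibitory motif in the cytoplasmic tail, near the N terminus, which recruits the phosphatase SHP-1. Activating members lack a working motif and signal through the adaptor DAP12, encoded by Tyrobp. In the mouse liver, ILC1 are known for Ly49E, the product of Klra5, whereas most other Ly49 receptors are each known from subsets of conventional NK cells.

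The start of the coding sequence separates these types, and the first 51 coding bases of all 10 genes are shown for that reason. They are on the minus strand of GRCm38, from GENCODE M21, 5′ to 3′, with codon 8, the codon of the tyrosine of the inhibitory motif, in capitals. It is TAC or TAT, both tyrosine codons, in 8 genes, and TTC, a phenylalanine codon, in Klra8 and Klra4, which encode the activating receptors Ly49H and Ly49D.
Klra5 (chr6:129911411-129911461): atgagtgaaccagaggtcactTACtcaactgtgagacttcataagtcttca
Klra9 (chr6:130191251-130191301): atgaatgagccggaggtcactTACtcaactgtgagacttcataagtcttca
Klra3 (chr6:130335749-130335799): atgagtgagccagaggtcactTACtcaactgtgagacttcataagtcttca
Klra10 (chr6:130281872-130281922): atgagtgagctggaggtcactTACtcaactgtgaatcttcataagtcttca
Klra7 (chr6:130231567-130231617): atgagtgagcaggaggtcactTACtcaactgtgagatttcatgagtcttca
Klra1 (chr6:130380612-130380662): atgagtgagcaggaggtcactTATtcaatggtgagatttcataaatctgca
Klra6 (chr6:130025169-130025219): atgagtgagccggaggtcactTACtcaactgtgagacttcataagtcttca
Klra2 (chr6:131245276-131245326): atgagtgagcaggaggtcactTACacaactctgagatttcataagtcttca
Klra8 (chr6:130128110-130128160): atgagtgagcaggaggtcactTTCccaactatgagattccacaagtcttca
Klra4 (chr6:130065252-130065302): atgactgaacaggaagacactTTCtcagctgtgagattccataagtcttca
Outside codon 8 the stretch is similar throughout the family, including in Klra2, which encodes Ly49B and had a coding sequence no more than 61.6% identical to that of any other member.

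How alike the genes are bears on every count, because the reads were 51 bases long. The stretch at coding bases 282 to 332 of Klra9 is shown because Klra3, Klra8 and Klra10 hold it letter for letter, so that a read from there fits 4 genes. Capitals mark bases that differ from Klra9 (minus strand, GRCm38, from GENCODE M21).
Klra9 (chr6:130188719-130188769): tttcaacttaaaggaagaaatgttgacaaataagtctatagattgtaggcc
Klra6 (chr6:130022672-130022722): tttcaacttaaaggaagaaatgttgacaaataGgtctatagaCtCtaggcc
Klra5 (chr6:129908863-129908913): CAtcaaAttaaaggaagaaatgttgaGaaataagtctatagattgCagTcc
Klra7 (chr6:130228604-130228654): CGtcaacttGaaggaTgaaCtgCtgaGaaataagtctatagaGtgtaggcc
Counted over all windows of 51 bases in the GENCODE M21 transcripts, 100% of those of Klra2 and 99.5% of those of Klra5 occur in no other gene. The share was 97.1% for Klra1, 88.2% for Klra7 and 80.3% for Klra3. It was lowest for Klra9 (69.6%), Klra8 (67.6%) and Klra10 (61.6%). The coding sequences of Klra9 and Klra10 were 96.9% identical, and those of Klra3 and Klra10 96.2%. Klra5 was closest to Klra6, at 91.9%.

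The gene models of the count table add a second limit. Klra5 and Klra2 overlap no other Klra model, whereas the Klra9 model spans 220.3 kb of chromosome 6 (130115516 to 130335817, mm10) and overlaps 10 other Klra models. In GENCODE M21 Klra9 occupies 130178675 to 130193112. The models of Klra4, Klra7, Klra8 and Klra10 each lie wholly inside 4 other models, and those of Klra3, Klra6 and Klra9 inside 2. Of these 7, Klra4 and Klra6 had 0 and 2 reads over all libraries, and the others between 176 and 41475. How reads in several models were counted is not given in the sources used here, and the bearing of these overlaps on the levels of the members was not tested.

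**Figure D1:**
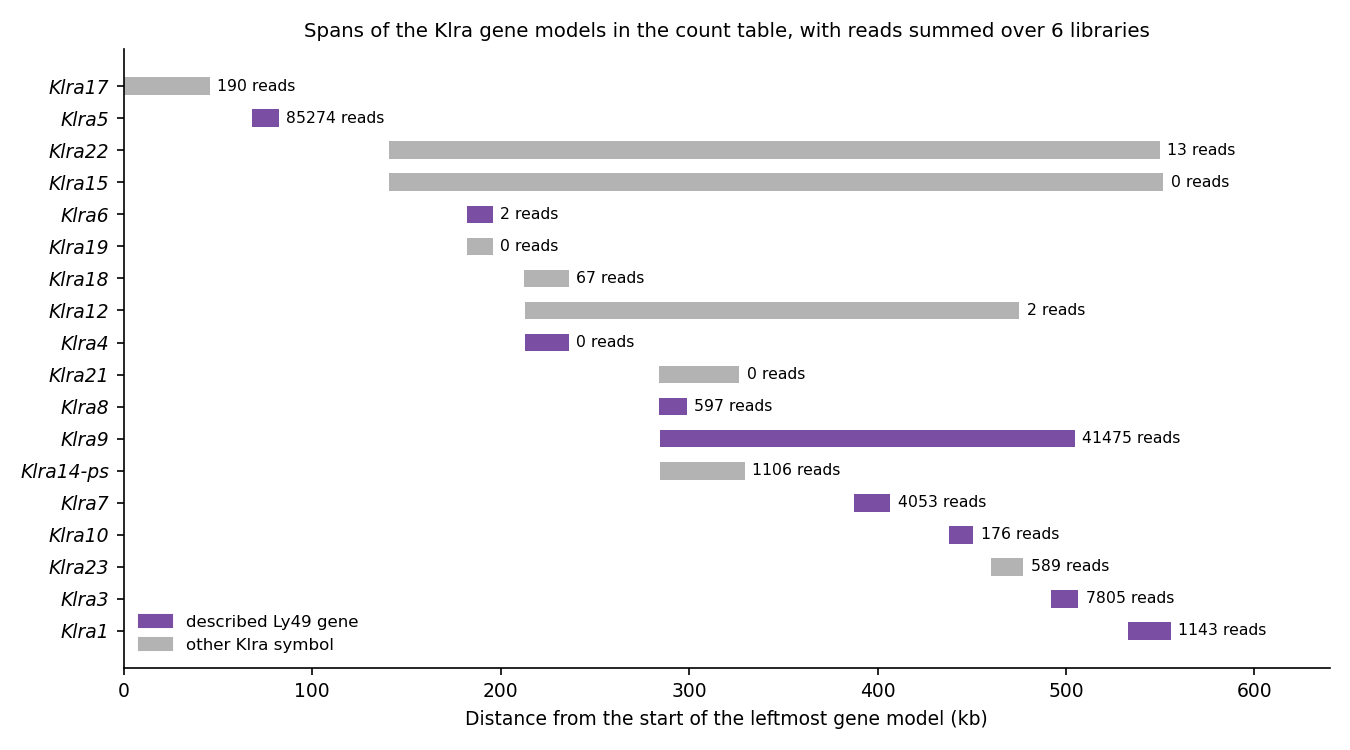
Spans of Klra gene models of the count table along chromosome 6, as distance in kb from the start of the leftmost model, with the reads of all 6 libraries summed beside each bar. Purple bars are members and grey bars other Klra symbols. Klra5 stands free of other models, while both members with few reads (Klra4 and Klra6, with 0 and 2) and members with many (Klra3 and Klra7, with 7805 and 4053) lie inside longer models. The models of Klra18 and Klra19, with 67 and 0 reads, nearly coincide with those of Klra4 and Klra6. Klra2, farther along the chromosome, is not drawn.

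The libraries held 47081693, 51284691 and 45135093 reads in AML 1, 2 and 3, and 50366362, 51114701 and 48999439 in healthy 1, 2 and 3. Levels are given as CPM, read counts scaled to a common library size with TMM factors, and 3 reads, the limit that a count of 0 allows, equal 0.0574 to 0.0641 CPM. Such a limit covers counting error alone, because PCR copies were not marked by molecular identifiers. The labelled cell type was checked against its markers. The 11 ILC1 markers in the table summed to 3263, 3331 and 3202 CPM in AML libraries and 3105, 3418 and 3336 CPM in healthy libraries. The 12 conventional NK markers summed to 601, 505 and 442 CPM in AML libraries and 552, 508 and 473 CPM in healthy libraries. The summed markers of myeloid and Kupffer cells, to which Lyz2 added the most, set healthy 2 and healthy 3 apart from the other 4 libraries. The 13 genes summed to 788, 710 and 665 CPM in AML libraries, against 581 CPM in healthy 1 and only 70.1 and 69.7 CPM in healthy 2 and 3. In bulk RNA, fewer cells of a type and less RNA per cell cannot be told apart. No label says that the libraries came from separate animals, so the spread behind each p-value may be technical.

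Most Ly49 mRNA of these cells came from Klra5 and Klra9. Per kilobase of the table's gene length, the mean level over 6 libraries was 253 CPM per kb for Klra5 and 62.0 CPM per kb for Klra9. Klra5 ranked 201st and Klra9 1248th of all symbols by this measure. Klra3 (20.3 CPM per kb) and Klra7 (9.07 CPM per kb) came next, with Klra7 near the median of all tested genes, 8.002 CPM per kb. Below them were Klra1 (2.12 CPM per kb), Klra2 (1.74 CPM per kb), Klra8 (1.73 CPM per kb) and Klra10 (0.736 CPM per kb). Klra6 was at 0.00618 CPM per kb and Klra4 at 0. The ranges over libraries did not overlap between neighbours in this order as far down as Klra1. They did overlap between Klra1 and Klra2, between Klra2 and Klra8 and between Klra8 and Klra10. Within libraries, Klra10 was below both Klra1 and Klra8 in all 6, whereas Klra2 was above Klra10 in 4 of 6. Klra1, Klra2 and Klra8 did not keep one order over the libraries.

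The place of Klra5 above Klra9 depended on the length used. With the table's lengths (1.143 kb and 2.272 kb), Klra5 had 2.12 to 8.50 times the level of Klra9 in each library. With GENCODE exon lengths (1.398 kb and 1.279 kb) the ratio was 0.976 to 3.91. With the number of windows found in no other gene as the length (1.365 kb and 0.889 kb), the ratio was 0.695 to 2.78. All reads of each gene were still counted there. By the GENCODE and the window lengths, AML 1 alone had less Klra5 than Klra9.

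**Figure D2:**
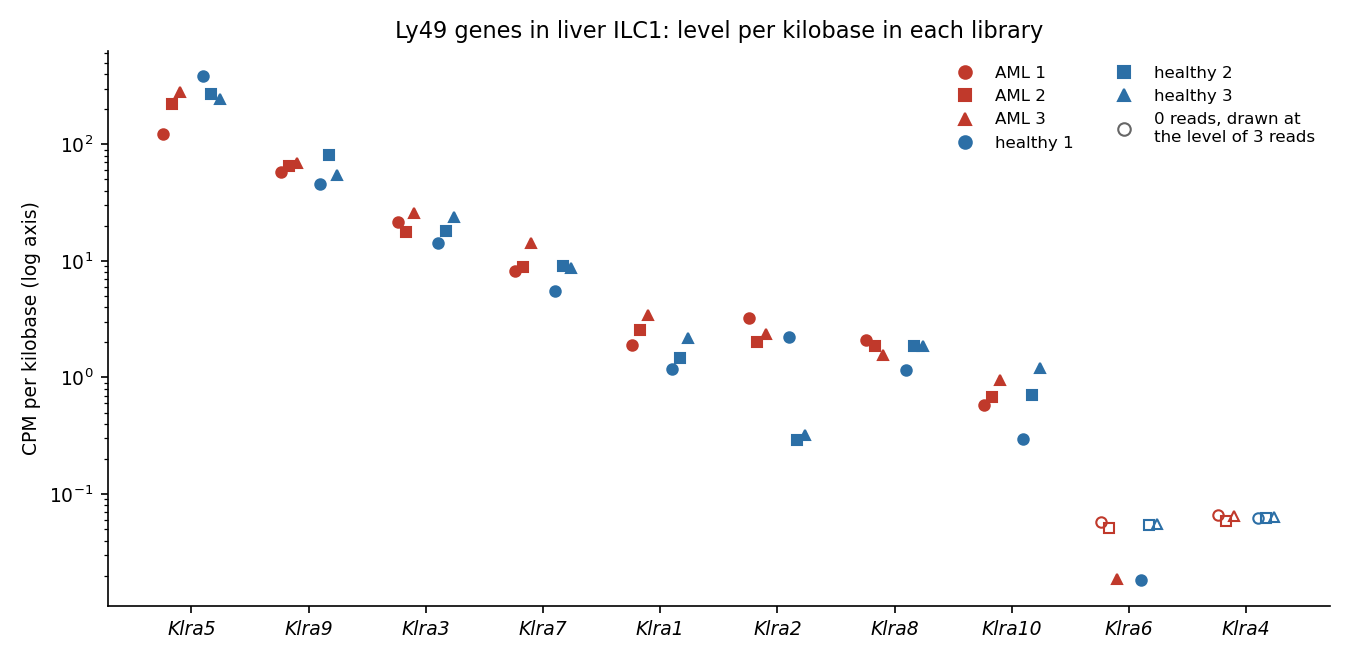
Level of each Ly49 gene in each library, in CPM per kb of the table's gene length on a log10 axis, with AML libraries left of healthy libraries. Open symbols are libraries with 0 reads, drawn at the level of 3 reads, the limit that 0 allows; the filled symbols of Klra6 below them are single reads. Klra5 and Klra9 lie above all other members in every library.

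Within a library, Klra5 took 43.1%, 56.2% and 58.5% of the reads of the 10 genes in AML 1, 2 and 3, and 76.1%, 57.5% and 61.4% in healthy 1, 2 and 3. AML 1 had the lowest share and healthy 1 the highest, and the other 4 libraries lay close together. Klra9 took 40.4%, 33.1% and 28.8% in AML libraries and 17.8%, 34.4% and 27.1% in healthy libraries. The whole family summed to 323, 450 and 544 CPM in AML libraries and 578, 535 and 454 CPM in healthy libraries. Without Klra5 it summed to 184, 197 and 225.5 CPM in AML libraries and 138, 227 and 175 CPM in healthy libraries, so the groups overlapped by either sum.

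**Figure D3:**
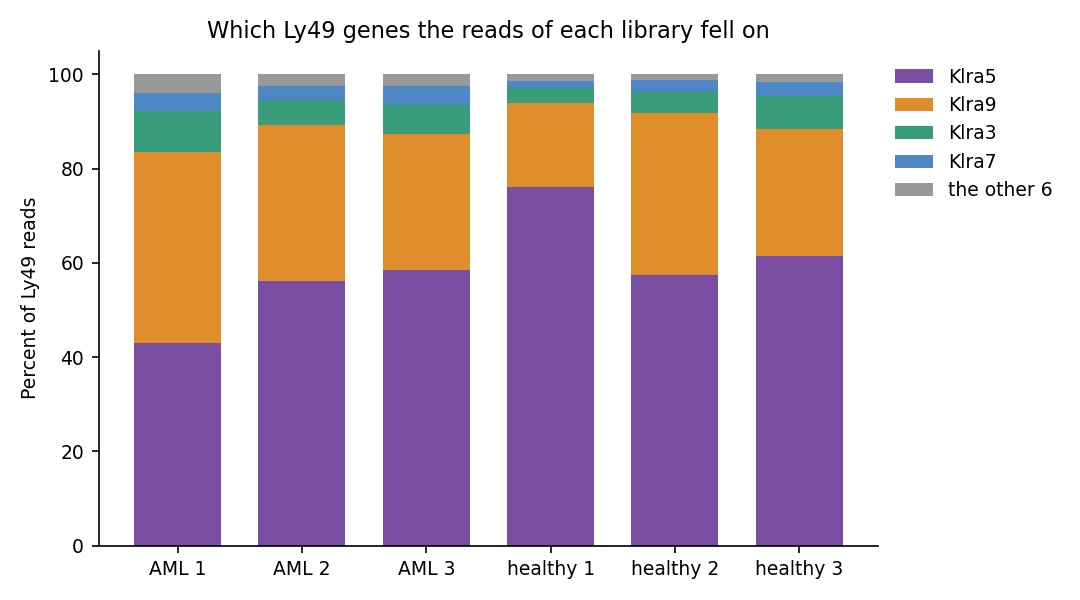
Share of Ly49 reads taken by each member in each library, in percent, as stacked bars, AML libraries left of healthy libraries. Klra5 and Klra9 together make up 83.5% to 93.9% of each bar, and the Klra5 part is smallest in AML 1 and largest in healthy 1.

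The comparison of AML with healthy libraries asks whether the receptors of liver ILC1 differ in leukaemic mice. By edgeR's quasi-likelihood test with Benjamini-Hochberg adjustment over 12469 genes, 0 of the 8 tested members passed an adjusted p of 0.05 (background 0% of all genes tested). At an unadjusted p below 0.05 the count was also 0 of 8, against a background of 8.84%, or 1102 genes. At an adjusted p of 0.05, DESeq2, edgeR's likelihood ratio test and limma-voom each called 0 members as well. Of all 12469 genes they called 143, 100 and 0. Unadjusted, Klra2 alone was below 0.05 by DESeq2 (p 0.0445) and by limma-voom (p 0.0124), and no member was by the likelihood ratio test. Fold changes below are log2 values, AML minus healthy, from edgeR's quasi-likelihood fit.

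Klra5, the Ly49E gene, was the most abundant member and the only one with a negative fold change. Its level was 139, 253 and 318 CPM in AML 1, 2 and 3, and 439.8, 307 and 278 CPM in healthy 1, 2 and 3. Each AML library was below the healthy mean, but AML 3 was above healthy 2 and 3, so the groups overlapped. The means were 237 ± 90.6 CPM in AML and 342 ± 86.1 CPM in healthy libraries (SD, n = 3 each). The log2 fold change was -0.53 (SE 0.30, 95% interval -1.22 to 0.16), and the adjusted p 0.618 by edgeR's quasi-likelihood test. The size depended on which libraries were kept. It was -0.26 without AML 1, -0.31 without healthy 1 and -0.04 without both. Without any other single library it lay between -0.58 (AML 2 left out) and -0.80 (AML 3 left out). AML 1 was the lowest library and healthy 1 the highest, so leaving them out had to shrink the difference.

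Klra9 and Klra3 encode Ly49I and Ly49C, inhibitory receptors that bind H2-Kb, a class I molecule of C57BL/6 mice. Klra9 had 130.5, 149 and 156.5 CPM in AML libraries and 103, 184 and 122.8 CPM in healthy libraries. All AML libraries lay between the lowest and the highest healthy library. The means were 145 ± 13.4 CPM in AML and 136.5 ± 42.1 CPM in healthy libraries (SD, n = 3 each), and the log2 fold change came to 0.09 (SE 0.20, 95% interval -0.37 to 0.55), and the adjusted p 0.894 by edgeR's test. Klra3 had 28.5, 23.3 and 34.1 CPM in AML libraries and 18.9, 23.8 and 31.5 CPM in healthy libraries, which again overlapped. Its log2 fold change was 0.21 (SE 0.21), and the adjusted p 0.758 by edgeR's test. It was 0.05 without healthy 1, 0.07 without AML 3 and 0.42 without healthy 3. Klra10, the gene of Ly49J and the closest relative of both, had between 12 and 47 reads in each library. Its log2 fold change was 0.00 with an SE of 0.62, so its direction is undetermined at this depth.

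Klra7 and Klra1 encode Ly49G and Ly49A, inhibitory receptors known to bind H2-Dd, a class I molecule of other mouse strains. Klra7 had 12.4, 13.5 and 21.6 CPM in AML libraries and 8.39, 13.9 and 13.3 CPM in healthy libraries. AML 3 was high and healthy 1 low, and the other 4 libraries lay between 12.4 and 13.9 CPM. The log2 fold change was 0.42 (SE 0.27, 95% interval -0.22 to 1.06), and the adjusted p 0.648 by edgeR's test. It was 0.13 without AML 3, 0.22 without healthy 1, and between 0.50 and 0.57 without any other single library. Klra1 had 3.51, 4.71 and 6.27 CPM in AML libraries and 2.19, 2.71 and 3.99 CPM in healthy libraries. Healthy 3 lay above AML 1, and otherwise the AML libraries were the higher ones. The log2 fold change was 0.70 (SE 0.33, 95% interval -0.07 to 1.48), with the smallest p of the family, 0.0700 unadjusted and 0.569 adjusted by edgeR's test.

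Klra8 encodes Ly49H, the activating receptor known for recognising a mouse cytomegalovirus protein on infected cells. It had 2.46, 2.182 and 1.83 CPM in AML libraries and 1.36, 2.17 and 2.20 CPM in healthy libraries, so the groups overlapped. The log2 fold change was 0.17 (SE 0.33), and the adjusted p 0.875 by edgeR's test. Klra4, the gene of the activating receptor Ly49D, had 0 reads in all 6 libraries. Klra6, the gene of the inhibitory receptor Ly49F, had 1 read in AML 3 and 1 read in healthy 1. Both models lie inside longer Klra models, as do those of Klra3, Klra7, Klra8, Klra9 and Klra10, which had reads. Klra4 and Klra6 also each nearly coincide with a model of another symbol. Klra4 (130044008 to 130067271) lies within Klra18 (130043745 to 130067271), which had 67 reads over all libraries. Klra6 (130013033 to 130026960) nearly matches Klra19 (130013034 to 130026960), which had 0 reads. Whether reads of Klra4 or Klra6 were given to these models was not tested. Neither Klra4 nor Klra6 was tested.

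Klra2 encodes Ly49B, a divergent inhibitory member known from myeloid cells rather than NK cells. It had 282, 199 and 210 reads in AML libraries and 207, 27 and 29 reads in healthy libraries. As CPM the levels were 6.03, 3.81 and 4.42 in AML libraries and 4.19, 0.543 and 0.602 in healthy libraries. Healthy 2 and 3 stood far below the other 4 libraries, and healthy 1 lay above AML 2. The log2 fold change was 1.41 (SE 0.77, 95% interval -0.36 to 3.19), and the adjusted p 0.606 by edgeR's test.

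The result for Klra2 turned on healthy 1. Without that library the log2 fold change was 3.04, and the adjusted p 0.0217 by edgeR's test, where 0.697% of all genes were called. Without AML 1 and healthy 1 together it was 2.84, and the adjusted p 0.0118 and 3.54% of all genes called. Over all alternatives its adjusted p ran between 0.0118 and 0.861.

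Myeloid markers did not all share 1 pattern over libraries. Lyz2, the lysozyme gene of myeloid cells, had 503, 566 and 434 CPM in AML libraries, against 459, 35.0 and 33.1 CPM in healthy libraries. Csf1r, the receptor of a macrophage growth factor, had 115, 59.1 and 68.8 CPM in AML libraries, against 71.2, 9.81 and 7.14 CPM in healthy libraries. In both, as in Klra2, healthy 2 and 3 were far below the other 4 libraries. The complement genes C1qa, C1qb and C1qc and the macrophage gene Ms4a7 were instead low in all healthy libraries and lowest in healthy 1. C1qb had 11.6, 18.8 and 38.8 CPM in AML libraries, against 2.41, 3.82 and 4.22 CPM in healthy libraries. All 12 tested markers of the myeloid and Kupffer list had a positive log2 fold change, with 0 called, and their median was 2.17, against 0.01 over all genes tested. No gene of that list was at 0 in all libraries, although Marco, a macrophage receptor, was at 0 in 4 of them. The plasmacytoid dendritic markers summed to 118, 124 and 111 CPM in AML libraries and 88.5, 84.8 and 84.9 CPM in healthy libraries. Bst2 made up most of that sum, with 84.1, 98.4 and 79.6 CPM in AML libraries and 71.6, 62.2 and 66.3 CPM in healthy libraries. Siglech had 3.25, 0.804 and 2.61 CPM in AML libraries and 0 in every healthy library. All 7 genes of the list had a positive log2 fold change, against 52.0% of all genes tested, with 0 called. The part of these cells in the Klra2 result was not tested.

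**Figure D4:**
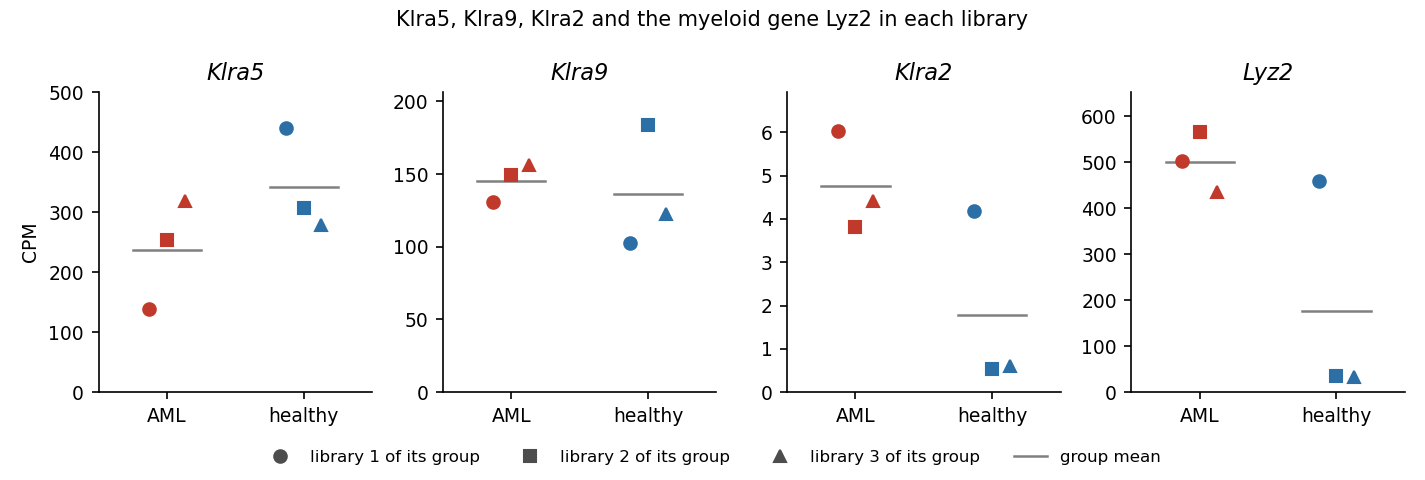
CPM of Klra5, Klra9, Klra2 and the myeloid gene Lyz2 in each library, AML left of healthy, with a line at each group mean. For Klra5 AML 1 is lowest and healthy 1 highest; for both Klra2 and Lyz2 healthy 2 and healthy 3 lie far below the other 4 libraries.

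Over the family, 7 of 8 tested members had a positive log2 fold change, against 52.0% of all genes tested. Klra8, Klra9 and Klra10 lost that sign without healthy 1. The median was 0.19 for the members and 0.01 for all genes. Members whose AML and healthy libraries did not overlap numbered 0 of 8, against a background of 15.5%. The authors' deposited table lists 7 of the 10 members. There the log2 fold changes were 1.42 for Klra2, 0.71 for Klra1 and -0.52 for Klra5. The adjusted p-values in the authors' likelihood ratio comparison were 0.518, 0.743 and 0.533. Its unadjusted p-values were 0.0296, 0.0866 and 0.0321, so Klra2 and Klra5 were below 0.05 there, unlike in the quasi-likelihood test.

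**Figure D5:**
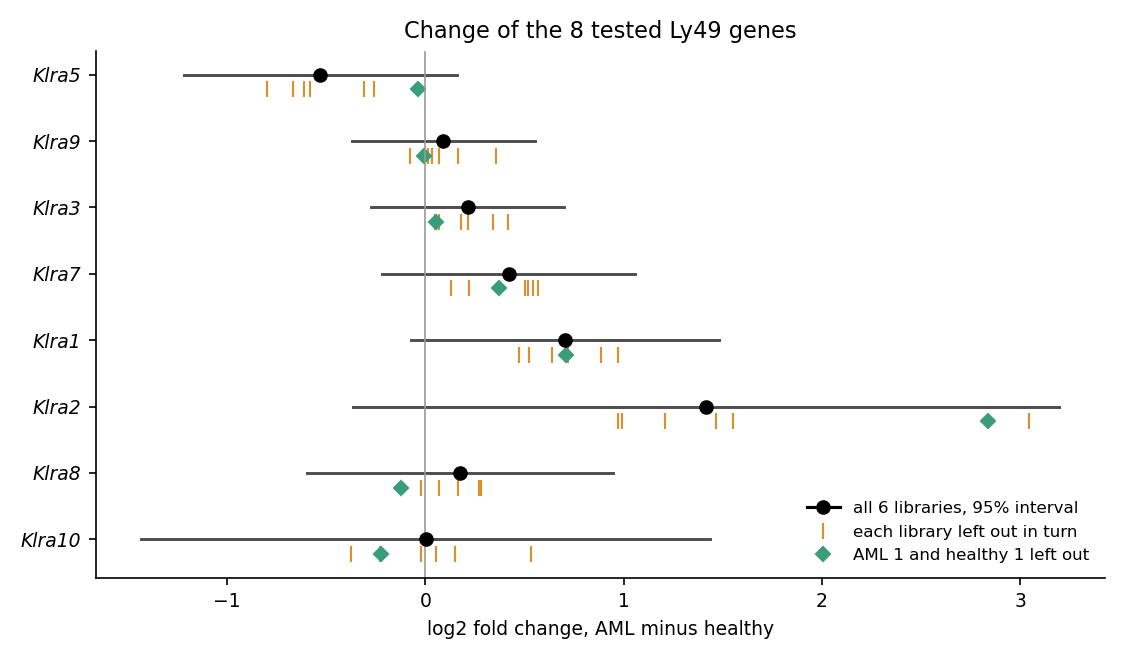
Log2 fold change, AML minus healthy, of the 8 tested Ly49 genes with 95% intervals from edgeR's quasi-likelihood fit. Black points and bars are the fit of all 6 libraries, orange ticks the values with each library left out in turn, and green diamonds those without AML 1 and healthy 1. Klra5 has the only black point below 0, the bar of every gene includes 0, and the tick of Klra2 at 3.04 is the value without healthy 1.

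Described next are 4 lists: MHC class I genes, inhibitory signalling, activating signalling and other Klr genes. In these, 0 genes passed an adjusted p of 0.05 by edgeR's test. For comparison with the counts below, 52.0% of all genes tested had a positive log2 fold change, and the median over all was 0.01. Of the class I genes, 5 of 7 tested had a positive log2 fold change, with a median of 0.08. H2-T23, the gene of the Qa-1 molecule, had 606, 649 and 608 CPM in AML libraries and 555, 599 and 570.4 CPM in healthy libraries, a log2 fold change of 0.11 (SE 0.07). For B2m, the shared light chain of class I, it was 0.08 (SE 0.06). Of the inhibitory signalling genes 2 of 6 were positive, with a median of -0.07. Ptpn6, which encodes SHP-1, had 469, 565 and 568 CPM in AML libraries and 629, 609.7 and 542 CPM in healthy libraries, a log2 fold change of -0.15 (SE 0.10).

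Among the activating signalling genes 2 of 15 had a positive log2 fold change, with a median of -0.08. The smallest p belonged to Vav1, a signalling protein of lymphocytes. It had 398, 359.6 and 354 CPM in AML libraries and 423, 441 and 429 CPM in healthy libraries. The groups did not overlap, as for 15.5% of all genes tested. The log2 fold change of Vav1 was -0.22 (SE 0.07), and the adjusted p 0.479 by edgeR's test. Tyrobp, the adaptor that Ly49H and Ly49D need, had 1472, 1823 and 1564 CPM in AML libraries and 1735, 1646 and 1641 CPM in healthy libraries, and the groups overlapped.

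Of the other Klr genes of the natural killer gene complex, 9 of 15 tested had a positive log2 fold change, with a median of 0.06. Klrk1, which encodes the activating receptor NKG2D, had 1389, 1517 and 1586 CPM in AML libraries and 1213, 1243 and 1352 CPM in healthy libraries. Klrc2, which encodes the activating receptor NKG2C, had 82.5, 103.5 and 115 CPM in AML libraries and 80.9, 70.3 and 78.4 CPM in healthy libraries. In both, every AML library was above every healthy one, and the groups did not overlap for 15.5% of all genes tested. Both were named for a small p, which goes with separated groups. The log2 fold changes were 0.24 (SE 0.08) for Klrk1 and 0.39 (SE 0.13) for Klrc2, each with an adjusted p of 0.479 by edgeR's test.

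Across the 6 libraries the genes whose levels correlated most with those of Klra5 were Cant1 (Pearson r 0.99), Ergic3, Vti1b, Ptpra and Ifitm10, by log2(CPM + 1) over 8345 genes. For Klra1, the member with the smallest p, they were Clec2d (Pearson r 1.00), Tnfsf14, H2-K2, 9930111J21Rik1 and Phf12. Clec2d, which encodes a ligand of an NKR-P1 receptor, had 18.2, 24.3 and 31.2 CPM in AML libraries and 13.8, 16.2 and 21.5 CPM in healthy libraries. These genes were picked among many for likeness in pattern, not in level or size of change, over 6 libraries that share their preparation. The values are a description.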

How the data were processed

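Poly(A) RNA was sequenced from 2 ng of total RNA per library, as single unstranded reads of 51 cycles, per the labels' protocols. The authors deposited raw read counts per gene symbol. They also deposited their own comparison, which per the file headers holds log2 fold changes, a likelihood ratio score and p-values, beside per-library values that equal RPKM and were used in no test. The submitters' processing notes name STAR 2.6.0, HTSeq 0.6.0, edgeR 3.28.1 and mm10.

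Genes were tested with edgeR 4.0.16 (R 4.3.3): TMM, filterByExpr at a minimum count of 10, the group alone in the design, quasi-likelihood F test, two-sided, Benjamini-Hochberg adjustment over 12469 genes, threshold 0.05. DESeq2 1.42.0 and limma 3.58.1 were alternatives, beside other size factors and filters, a replicate block and leaving out libraries. An exact permutation test of 3 against 3 libraries cannot go below p = 0.1. No libraries were alike within sampling noise.

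Sequences are GENCODE M21 transcripts (GRCm38). Identity was computed on coding sequence in place of protein. The members, lists and rules were chosen with earlier results of these data known. All members were named, at most the 3 genes with the smallest p per list, and the 5 genes most alike (mean CPM at least 10) for 2 members. Tyrobp, Lyz2, Csf1r, Marco, the C1q genes, Ms4a7, Bst2, Siglech, Kit, Cd79b and single T cell genes were named outside this rule, after their values were seen. Marker lists of T, B, hepatocyte and progenitor or leukaemia cells are reported among the other observations.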

Additional observations from a re-analysis of the deposited data

How the results depend on the processing

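With 3 libraries a group and the spread seen here, the family's results depended mainly on which libraries were kept. Over all genes, 0 were called by edgeR's quasi-likelihood test; 2 with library totals only, 2 with no filter on low counts, 100 with edgeR's likelihood ratio test and 143 with DESeq2. Leaving out 1 library gave 0 to 147 genes, with 147 without AML 1 and 89 without healthy 1, and leaving out both gave 444. Ly49 members called numbered 0 to 1 with 1 library left out, and 1 with both left out, in each case Klra2; the cause was not tested. Of 119 fold changes of members under alternatives, 109 kept their direction and side of the threshold. The sign turned for Klra8 (-0.024 to 0.28 with 1 library left out, -0.12 with both), Klra9 (-0.080 to 0.36, and -0.0049 with both) and Klra10 (-0.38 to 0.53, and -0.23 with both), whose 95% intervals all include 0 in the fit of the 6 libraries. Klra10 was not tested under the stricter filter. The labels do not say that replicate numbers pair the libraries. Deviations of same-numbered libraries from their group means correlated at 0.134, -0.13 and 0.248, and those of differently numbered libraries at -0.334 to 0.201. These values cannot settle pairing, because the deviations of the 3 libraries of a group sum to 0. With the replicate number as a block, 0 genes and 0 members were called, and the log2 fold change of Klra2 was 2.05; it was 2.04 with limma-voom and no block.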

Other observations

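The count table holds 9 further Klra symbols, of which Klra15, Klra19 and Klra21 had 0 reads in every library. Klra14-ps, a pseudogene, had 147, 248 and 220 reads in AML libraries and 154, 184 and 153 reads in healthy libraries. Klra23, a symbol with no gene of that name in GENCODE M21, had 100, 124 and 78 reads in AML libraries and 36, 135 and 116 reads in healthy libraries. Klra17, also on the plasmacytoid dendritic list, had 50, 44 and 47 reads in AML libraries and 28, 0 and 21 reads in healthy libraries.

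Among markers of other cell types, T cell genes summed to 979, 1352 and 1263 CPM in AML libraries and 1693, 1518 and 1373 CPM in healthy libraries. Cd3g alone made up nearly all of that sum, with 950.4, 1292 and 1175 CPM in AML libraries and 1646, 1458 and 1316 CPM in healthy libraries. Of the 8 T cell genes, 4 had a positive log2 fold change, among them Cd3e (0.38) and Cd8a (0.47), and the median was 0.07. B cell genes summed to 6.31, 6.39 and 5.45 CPM in AML libraries and 6.75, 7.54 and 5.36 CPM in healthy libraries, of which Cd79b made up most. Hepatocyte genes summed to 0.577, 1.01 and 0.925 CPM in AML libraries and 0.689, 1.35 and 3.82 CPM in healthy libraries. Progenitor and leukaemia genes summed to 30.5, 15.98 and 23.97 CPM in AML libraries and 23.8, 6.39 and 13.6 CPM in healthy libraries. Kit alone made up most of that sum, with 27.0, 14.9 and 20.5 CPM in AML libraries and 22.75, 5.63 and 13.2 CPM in healthy libraries. None of these lists had a gene past an adjusted p of 0.05 by edgeR's quasi-likelihood test.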
